A study of Mus musculus with 12 samples.

Results

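Ptgs2, the inducible cyclooxygenase, and the genes that work before and after it in prostaglandin synthesis were followed in mouse neuronal cultures exposed to antidepressants. The genes listed were 9: Ptgs2, Ptgs1, Ptges, Ptges2, Ptges3, Ptgds, Pla2g2e, Pla2g4a and Hpgd. A probe set was taken as a member where its annotation named exactly 1 gene symbol and that symbol was on the list. This gave 8 probe sets, 1 for each of 8 genes, of 23521 such probe sets for 22180 genes and of 41345 probe sets in the table. Ptgs1, the constitutive cyclooxygenase, had no probe set that met the rule and was not analysed here. Ptges3 had 1 that met it, and 2 further ones that also named another gene were not used. Ptgs2 and Pla2g2e were chosen by their differences between drug and control on these arrays, so those differences are given as a description with no test. The other genes were added for their place in the pathway, with earlier results of these data known.

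The RNA came from primary neuronal cultures of brain of ICR (CD-1) mouse embryos, and each group had 2 arrays. The groups were amitriptyline at 5 µM, citalopram at 10 µM, duloxetine at 0.1 µM, imipramine at 5 µM, mirtazapine at 50 µM, and control. Drug was added on day in vitro 3 and cells were harvested after 48 h, on day in vitro 5. The sources used here state neither what was added to control cultures nor whether the 2 arrays of a group came from separate cultures. A p-value therefore reflects the spread between these arrays, which may be technical. Each drug had 1 dose, and all comparisons with control share the same 2 control arrays. Values are RMA log2 intensities, on which a difference of 1 is a doubling of signal. They carry no read depth, so the number of arrays limits the precision, and the level of one gene's probe set cannot be set against another's.

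Prostaglandins are lipid signals made on demand. Phospholipases free arachidonic acid from membranes, the cyclooxygenases Ptgs1 and Ptgs2 turn it into the unstable prostaglandin H2, and terminal synthases convert that into prostaglandin E2, D2 and others, which leave the cell, act on G protein-coupled receptors and are inactivated by Hpgd. In brain, Ptgs2 is present in excitatory neurons, where synaptic activity raises it, and is also induced in glia and vessels during inflammation and fever.

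Ptgs2 was 3.46 to 5.17 times higher under amitriptyline, citalopram, imipramine and mirtazapine than in control, and not higher under duloxetine. Pla2g2e, a secreted phospholipase, was 1.53 to 1.83 times higher under the same 4 drugs and 1.21 times higher under duloxetine. Pla2g4a, the cytosolic phospholipase, lay above control on all 8 arrays of those 4 drugs without passing the test. Of the prostaglandin E and D synthases and Hpgd, none passed the test, and Ptges3 had the largest difference, -0.70 on the log2 scale under mirtazapine. Of the wider pathway, the transporter gene Abcc4 rose and passed the test under mirtazapine, as did 1.52% of all probe sets. It had similar values under amitriptyline, citalopram and imipramine, where it did not pass.

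The promoters of Ptgs2, Pla2g2e and Abcc4 are shown because Ptgs2 and Pla2g2e were chosen for their differences and Abcc4 was the gene of the wider pathway that passed the test. Each is the 250 bases before and 50 bases from the annotated start, 5′ to 3′ on the gene's strand, from RefSeq on GRCm38.p6. Both strands were searched for the cAMP response element half-site TGACG, the E-box motif CACGTG, the C/EBP motif TTGCGCAA, the antioxidant response element core written TGACNNNGC, the C/EBP-ATF response element written TGATGNAA and the core promoter box with letters TATAAA, and capitals mark the matches. Ptgs2 lies at chr1:150099781-150100080 (plus strand), Pla2g2e at chr4:138877692-138877991 (plus strand) and Abcc4, the first of its 2 promoters in the table, at chr14:118706170-118706469 (minus strand).
Ptgs2: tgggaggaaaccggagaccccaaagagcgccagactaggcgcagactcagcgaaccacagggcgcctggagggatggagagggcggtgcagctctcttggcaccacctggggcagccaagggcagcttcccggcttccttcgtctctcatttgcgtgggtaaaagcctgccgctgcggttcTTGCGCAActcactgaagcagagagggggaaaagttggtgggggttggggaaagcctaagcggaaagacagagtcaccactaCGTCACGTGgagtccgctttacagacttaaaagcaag
Pla2g2e: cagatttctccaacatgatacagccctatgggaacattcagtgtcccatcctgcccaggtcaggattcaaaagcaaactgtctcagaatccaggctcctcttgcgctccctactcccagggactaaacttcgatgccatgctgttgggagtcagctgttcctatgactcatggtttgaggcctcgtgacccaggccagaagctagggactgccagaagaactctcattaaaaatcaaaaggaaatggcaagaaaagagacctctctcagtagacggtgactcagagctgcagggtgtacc
Abcc4: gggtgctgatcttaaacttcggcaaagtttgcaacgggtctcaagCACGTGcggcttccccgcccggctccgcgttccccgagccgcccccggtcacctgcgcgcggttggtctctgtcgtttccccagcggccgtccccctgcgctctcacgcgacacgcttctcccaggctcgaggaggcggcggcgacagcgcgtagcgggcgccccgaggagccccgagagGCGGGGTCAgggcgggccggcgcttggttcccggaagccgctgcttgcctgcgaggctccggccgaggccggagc

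The Ptgs2 window held the C/EBP letters at bases 182 to 189, which are in 0.183% of 32851 promoters of this length. It also held a cAMP response element half-site, read on the minus strand as CGTCA at bases 264 to 268, which shares its last bases with an E-box at bases 267 to 272. The half-site is in 20.8% of promoters and the E-box in 7.15%. No searched motif was in the Pla2g2e window. The Abcc4 window held an E-box at bases 46 to 51 and, on the minus strand, the antioxidant response element core GCGGGGTCA at bases 226 to 234, whose pattern is in 12.4% of promoters. The core promoter box letters are in 13.6% and the C/EBP-ATF letters in 3.97% of promoters, and neither was in these windows. A match is a description of letters, and factor binding was not measured here.

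All 8 member probe sets passed the filter on low values and were tested with limma among 18493 probe sets, with Benjamini-Hochberg adjustment over all of them and a threshold of 0.05. Under imipramine 1 of the 8 passed, Ptgs2, where 0.0216% of all probe sets passed. Under mirtazapine 2 passed, Ptgs2 and Pla2g2e, where 1.52% of all passed. Since these are the genes that were chosen by these contrasts, nothing is read from either count. Under amitriptyline, citalopram and duloxetine 0 of the 8 passed in limma, as did 0% of all probe sets. Of the 6 members not chosen that way, an unadjusted p under 0.05 was met by 1 under amitriptyline, 1 under citalopram, 0 under duloxetine, 1 under imipramine and 3 under mirtazapine, where 6.14%, 4.28%, 10.1%, 4.48% and 22.1% of all probe sets met that bound. With Ptgs2 and Pla2g2e the counts were 3, 3, 1, 3 and 5, from which nothing is read. The median difference of the 8 was 0.05, 0.07, -0.06, 0.07 and -0.10 in the same order of drugs, beside -0.02, -0.005, -0.015, -0.01 and -0.03 for all probe sets.

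**Figure D1:**
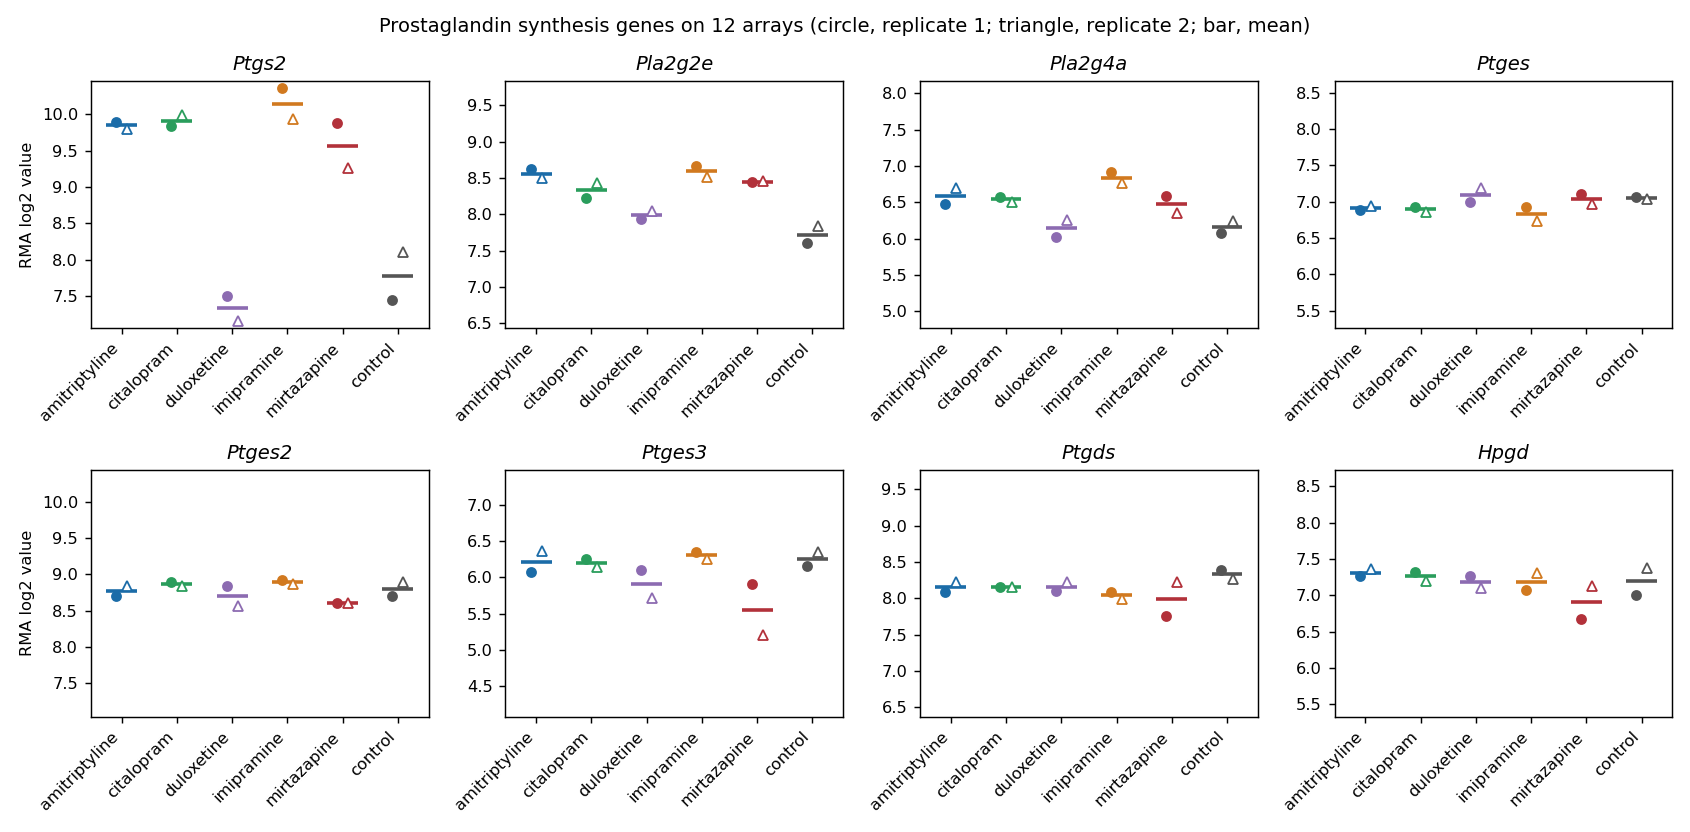
RMA log2 value (y axis) of each member probe set on the 12 arrays, by drug with control at the right. Circles are replicate 1, triangles replicate 2 and bars group means. Ptgs2 spans 7.16 to 10.36 and falls into a high and a low set of arrays, while Ptges spans 6.73 to 7.19.

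At the first step, arachidonate release, Pla2g2e encodes a secreted phospholipase A2 of low molecular weight. Its log2 values were 8.62 and 8.50 under amitriptyline, 8.23 and 8.43 under citalopram, 7.94 and 8.05 under duloxetine, 8.67 and 8.52 under imipramine and 8.44 and 8.46 under mirtazapine, against 7.60 and 7.84 in control. Every drug array lay above both control arrays, and both duloxetine arrays lay below those of the other 4 drugs. The differences from control were 0.84 for amitriptyline, 0.61 for citalopram, 0.28 for duloxetine, 0.88 for imipramine and 0.73 for mirtazapine, each with a standard error of 0.11. The pooled SD between arrays of a group was 0.111, and the group means spanned 0.88.

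Pla2g4a encodes cytosolic phospholipase A2 alpha, the calcium-activated enzyme that releases arachidonic acid for Ptgs2. Its log2 values were 6.47 and 6.70 under amitriptyline, 6.58 and 6.51 under citalopram, 6.02 and 6.26 under duloxetine, 6.92 and 6.76 under imipramine and 6.59 and 6.35 under mirtazapine, against 6.08 and 6.24 in control. Arrays of the 4 drugs other than duloxetine lay above control, and duloxetine overlapped it. The largest difference was under imipramine, at 0.68 ± 0.13 (SE, n = 2 arrays a group), a ratio of 1.6 with a 95% interval of 1.31 to 1.96. It did not pass in limma (adjusted p = 0.153), and neither did amitriptyline at 0.42 (adjusted p = 0.40), citalopram at 0.39 (adjusted p = 0.878) or mirtazapine at 0.31 (adjusted p = 0.209). Under duloxetine the difference was -0.02 with a 95% interval of -0.31 to 0.27.

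At the cyclooxygenase step, Ptgs2 had log2 values of 9.90 and 9.80 under amitriptyline, 9.84 and 9.99 under citalopram, 7.50 and 7.16 under duloxetine, 10.36 and 9.94 under imipramine and 9.88 and 9.26 under mirtazapine, against 7.45 and 8.11 in control. The 8 arrays of amitriptyline, citalopram, imipramine and mirtazapine ran between 9.26 and 10.36, with a median of 9.89, and the 4 arrays of duloxetine and control between 7.16 and 8.11. The 2 ranges did not overlap, while duloxetine and control overlapped each other. Ordered by mean, the groups were imipramine (10.15 ± 0.297), citalopram (9.92 ± 0.106), amitriptyline (9.85 ± 0.071), mirtazapine (9.57 ± 0.438), control (7.78 ± 0.467) and duloxetine (7.33 ± 0.24; SD, n = 2 each). The standard error of a difference between 2 of these means was 0.25.

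The difference of Ptgs2 from control was 2.07 for amitriptyline (95% interval 1.51 to 2.63), a ratio of 4.20. It was 2.14 for citalopram (1.57 to 2.70), a ratio of 4.39, and 2.37 for imipramine (1.81 to 2.93), a ratio of 5.17. For mirtazapine it was 1.79 (1.23 to 2.35), a ratio of 3.46. The pooled SD between arrays of a group was 0.309. For duloxetine the difference was -0.45, and its interval of -1.01 to 0.11 held 0. Doses differed between the drugs, and duloxetine's was the lowest, so these values stand side by side and no drug is set against another here apart from the pair of equal dose.

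The control arrays had the widest spread of any group in Ptgs2. Without control replicate 1, the lower of them, the 4 positive differences were smaller, 1.74 for amitriptyline, 1.81 for citalopram, 2.04 for imipramine and 1.46 for mirtazapine, and 0 members passed under imipramine and mirtazapine. Mirtazapine replicate 2, the lower of its pair in Ptgs2, is 1 of 2 arrays that stood apart over all probe sets. Without it the mirtazapine difference was larger, at 2.10, and 0 members passed.

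**Figure D2:**
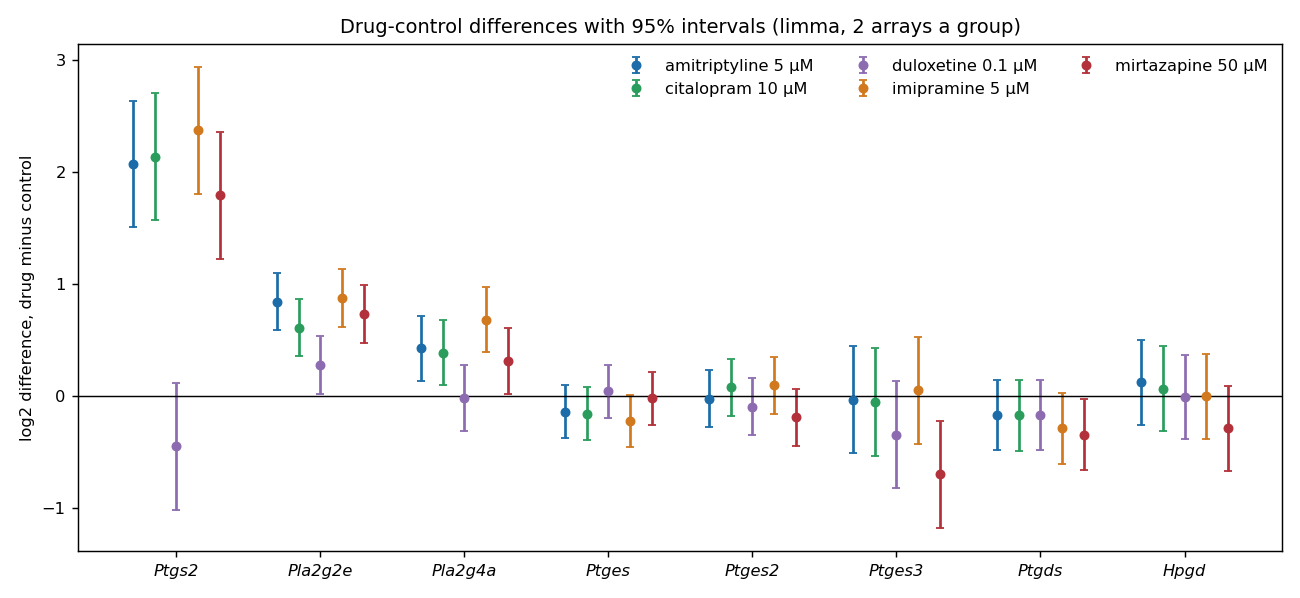
Difference in RMA log2 value, drug minus control (y axis), for the 8 member probe sets, with 95% intervals from limma over 2 arrays a group. Ptgs2 stands at 1.79 to 2.37 under 4 drugs and at -0.45 under duloxetine, and Pla2g2e at 0.28 to 0.88 under all 5.

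Amitriptyline and imipramine were given at the same dose and time, the only such pair, so 1 pair was compared. Both are tricyclics with a dimethylaminopropyl-type side chain. They differ in the central ring, which carries a nitrogen in imipramine and in amitriptyline a carbon joined to the side chain by a double bond. Ptgs2 was 9.90 and 9.80 under amitriptyline and 10.36 and 9.94 under imipramine, a difference of -0.30 with a 95% interval of -0.86 to 0.26 (limma, adjusted p = 1). The ranges did not overlap, but the interval held 0. Pla2g2e differed by -0.04 (interval -0.29 to 0.22) and Pla2g4a by -0.26 (interval -0.55 to 0.04), both with an adjusted p of 1 in limma. In this comparison 0 of 8 members passed, and 0 met an unadjusted p under 0.05, beside 0% and 1.3% of all probe sets. The interval for Ptgs2 allows a ratio of amitriptyline to imipramine between 0.549 and 1.2, so it does not show that the 2 compounds act alike.

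Terminal synthases turn prostaglandin H2 into the active products. Ptges, the inducible membrane prostaglandin E synthase often co-induced with Ptgs2 in inflammation, had values of 6.89 and 6.94 under amitriptyline, 6.93 and 6.86 under citalopram, 7.0 and 7.19 under duloxetine, 6.93 and 6.73 under imipramine and 7.11 and 6.96 under mirtazapine, against 7.07 and 7.04 in control. Where Ptgs2 was high, Ptges lay at or slightly below control, with differences of -0.02 to -0.22 (limma, adjusted p from 0.916 to 1). The lower 95% bound for imipramine, the largest of these, was -0.46, and its upper bound was 0.01.

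Ptges2, a second membrane-associated prostaglandin E synthase, ran from 8.56 to 8.92 over the 12 arrays, and its group means spanned 0.29 beside a pooled SD of 0.109. Ptges3, known both as cytosolic prostaglandin E synthase and as the Hsp90 co-chaperone p23, had values of 5.90 and 5.20 under mirtazapine, against 6.15 and 6.35 in control. The 5.20, on mirtazapine replicate 2, lay below 5.72, the mean that the filter on low values asked for. Ptges3 was thus measured near the low end of the values tested. Its difference under mirtazapine was -0.70 ± 0.21 (SE), the lowest adjusted p of the 6 members not chosen by these contrasts (limma, adjusted p = 0.127). It rested on which mirtazapine array was used: it was -0.35 without mirtazapine replicate 2, 1 of the 2 arrays that stood apart (adjusted p = 0.614 in limma), and -1.05 without mirtazapine replicate 1, where it passed (adjusted p = 0.024 in limma). Over 21 alternative settings its adjusted p ran between these values, and 1 passed. Under the other 4 drugs Ptges3 differed from control by -0.35 to 0.05, and none passed.

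Ptgds, lipocalin-type prostaglandin D synthase, is abundant in meninges and choroid plexus. Its values were 8.09 and 8.23 under amitriptyline, 8.16 and 8.15 under citalopram, 8.10 and 8.22 under duloxetine, 8.09 and 7.99 under imipramine and 7.75 and 8.22 under mirtazapine, against 8.39 and 8.27 in control. All 10 drug arrays lay below both control arrays, by little. The differences ran between -0.35 under mirtazapine and -0.17 under amitriptyline, and none passed in limma (adjusted p from 0.20 to 1). The mirtazapine value was -0.11 without mirtazapine replicate 1 and -0.58 without mirtazapine replicate 2, and it passed without both arrays that stood apart (-0.58, adjusted p = 0.0332 in limma, over 22 alternative settings 0.0332 to 0.494). Hpgd, the dehydrogenase that inactivates prostaglandin E2, overlapped control under every drug, with arrays between 6.68 and 7.38. Its lowest value was on mirtazapine replicate 1, and its difference there was -0.29 (limma, adjusted p = 0.316).

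Among genes of the wider pathway, 1 gene passed in any comparison with control, under mirtazapine, where 1.52% of all probe sets passed. Of the 4 genes for prostaglandin transport and further breakdown, that was Abcc4, which encodes MRP4, a pump that exports prostaglandin E2 and cyclic nucleotides. Abcc4 values were 8.44 and 8.59 under amitriptyline, 8.42 and 8.50 under citalopram, 7.58 and 7.31 under duloxetine, 8.64 and 8.54 under imipramine and 8.64 and 8.28 under mirtazapine, against 7.16 and 7.74 in control. The arrays of the 4 drugs other than duloxetine all lay above control, and duloxetine lay within its range. Abcc4 rose by 1.01 ± 0.19 under mirtazapine (limma, adjusted p = 0.0327). The differences were of similar size under amitriptyline (1.06, adjusted p = 0.0993), citalopram (1.01, adjusted p = 0.361) and imipramine (1.14, adjusted p = 0.0999), and the rise is not shown to be particular to mirtazapine. Under 22 alternative settings the adjusted p for mirtazapine ran from 0.018 to 0.196 and was below 0.05 in 9. Leaving out any 1 array of amitriptyline, citalopram or imipramine, control replicate 1 or mirtazapine replicate 2 ended the call, with a difference of 0.72 without control replicate 1.

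Other phospholipases and lipases that can free arachidonate or its precursors lay closer to control than Pla2g2e under the 4 drugs. Of 24 listed genes, 20 were in the fit with 21 probe sets, 0 passed under any drug in limma, and at most 4 (under mirtazapine, where 22.1% of all probe sets did) had an unadjusted p under 0.05. Their medians were -0.005, 0.005, 0.09, -0.035 and 0.025 for amitriptyline, citalopram, duloxetine, imipramine and mirtazapine, and with either control array left out none was farther than 0.11 from 0. The lowest p-values belonged to Pla2g15, a lysosomal phospholipase, at -0.44 under mirtazapine (adjusted p = 0.108 in limma) and to Faah, which degrades anandamide to arachidonate, at -0.32 under mirtazapine (adjusted p = 0.192 in limma). The other probe set of Pla2g15 was at -0.245 under mirtazapine (adjusted p = 0.245 in limma). Of the other terminal synthases, 5 of 7 genes were in the fit with 6 probe sets and 0 passed in limma. At most 2 (under mirtazapine, where 22.1% of all probe sets did) had an unadjusted p under 0.05. Those of lowest p were Cbr1, a carbonyl reductase that can act on prostaglandin E2, at -0.24 under mirtazapine (adjusted p = 0.201) and Tbxas1, thromboxane synthase, at 0.29 under duloxetine (adjusted p = 0.49). The other probe set of Cbr1 was at -0.235 under mirtazapine (adjusted p = 0.297 in limma).

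Prostanoid receptors were measured by 7 probe sets of 6 genes, of 9 listed, and 0 passed in limma, with 4 of 7 at an unadjusted p under 0.05 under mirtazapine, beside 22.1% of all probe sets. The receptor nearest to the threshold was Ptger3, a prostaglandin E2 receptor that lowers cyclic AMP, with values of 7.73 and 7.49 under mirtazapine, against 8.17 and 8.06 in control. The difference was -0.50 (adjusted p = 0.0553), and the arrays did not overlap. Tbxa2r, the thromboxane receptor, was at 7.53 and 7.65 under mirtazapine, against 7.09 and 7.31 in control, with a difference of 0.39 (adjusted p = 0.128). The receptor list's median was 0.35 under mirtazapine and 0.21 under duloxetine, the groups that hold the 2 arrays that stood apart, against 0.10, 0.14 and 0.08 under amitriptyline, citalopram and imipramine. Those 2 arrays had a narrower range over all probe sets, with lower quartiles of 5.50 and 5.57 and upper ones of 8.21 and 8.20, against 5.37 to 5.50 and 8.31 to 8.37 on the other 10. The part of this in the receptor medians was not tested.

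The lipoxygenase branch, which makes leukotrienes from the same arachidonic acid, had 7 probe sets of 6 genes in the fit and 0 passed in limma. At most 2 (under mirtazapine, where 22.1% of all probe sets did) had an unadjusted p under 0.05. Ltc4s, leukotriene C4 synthase, differed by 0.48 (adjusted p = 0.149) and Alox12 by 0.48 (adjusted p = 0.186) under mirtazapine. Of 14 genes known to control Ptgs2, 10 were in the fit and 0 passed in limma, with at most 3 (under citalopram, where 4.28% of all probe sets did) at an unadjusted p under 0.05. Among them Zfp36, which promotes decay of Ptgs2 and other AU-rich mRNAs, had values of 8.0 and 7.88 under imipramine, against 7.29 and 7.63 in control, a difference of 0.48 (adjusted p = 0.56). Jun differed by -0.36 under duloxetine (adjusted p = 0.489). Il1b, Il6 and Il1r1 were below the filter on low values.

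Genes induced by neuronal activity, a class to which Ptgs2 belongs, were all in the fit, and 0 of 13 passed under any drug in limma. Among the drugs with high Ptgs2, the list had a median of -0.11 for amitriptyline, -0.105 for citalopram, -0.04 for imipramine and 0.05 for mirtazapine. Under duloxetine it was -0.23, with 5 of 13 at an unadjusted p under 0.05, beside 10.1% of all probe sets. These medians depended on the control array, since the list's mean was 8.37 on control replicate 1 and 8.0 on control replicate 2. Without control replicate 1 they were 0.025 for amitriptyline, 0.11 for citalopram, 0.115 for imipramine, 0.245 for mirtazapine and -0.09 for duloxetine. Those of amitriptyline, citalopram and imipramine thus changed sign. Without control replicate 2 they were -0.165, -0.155, -0.13, -0.11 and -0.3 in the same order, so that of mirtazapine changed sign. Fos, an immediate early transcription factor, was at 7.13 and 7.12 under duloxetine, against 8.45 and 7.50 in control, a difference of -0.85 (adjusted p = 0.489). Control replicate 1 was the higher by far in Fos and the lower in Ptgs2. Egr3, another activity-induced factor, differed by -0.33 under mirtazapine (adjusted p = 0.0981).

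**Figure D3:**
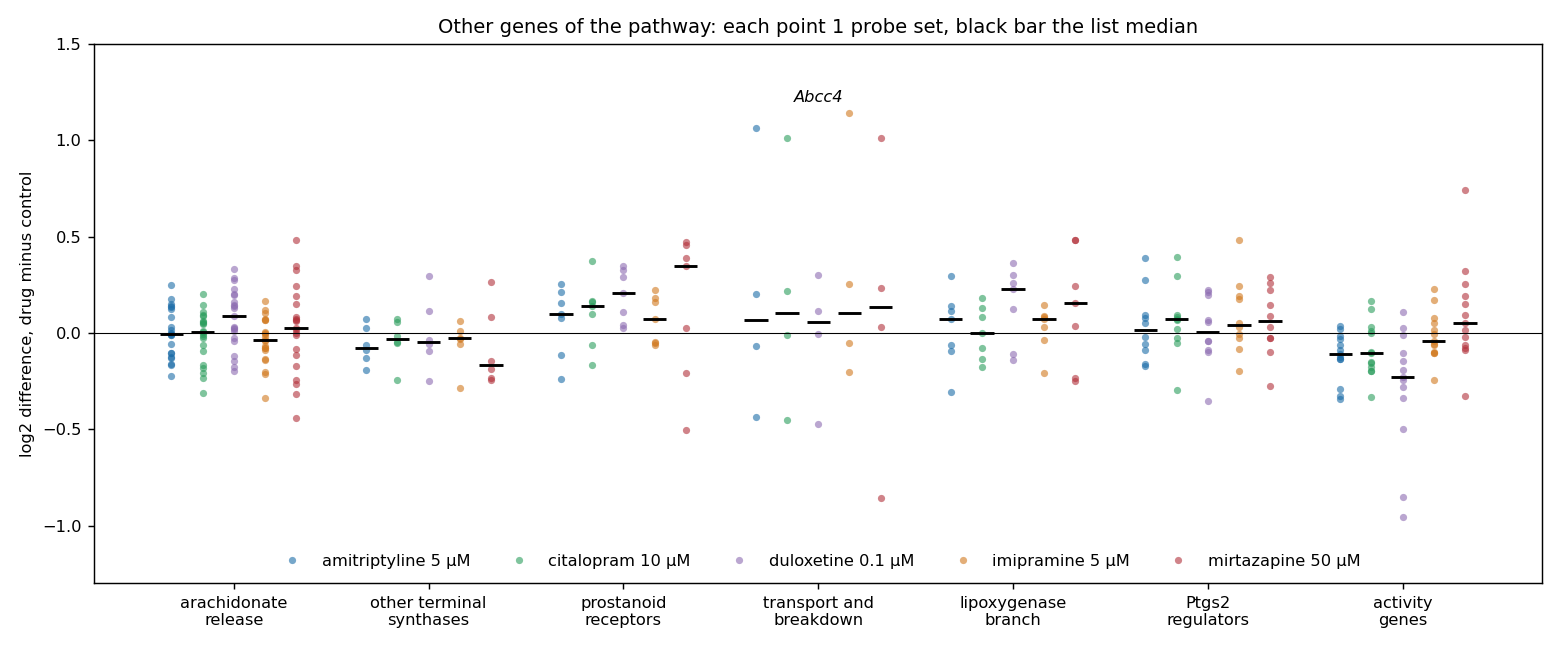
Difference in RMA log2 value, drug minus control (y axis), for the probe sets of 7 gene lists around prostaglandin synthesis (x axis), 1 point a probe set and a black bar at each list's median. Abcc4 stands at 1.01 to 1.14 under 4 drugs, and the receptor list's median is highest under mirtazapine at 0.35.

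Along chromosome 1, Pla2g4a and Ptgs2 are neighbouring protein-coding genes in the RefSeq annotation, with the long noncoding RNA Ptgs2os between them. Ptgs2os differed from control by 0.14 to 0.25 under 4 drugs and by 0.50 under mirtazapine, and so did not follow the order of Ptgs2. Pdc, the next protein-coding gene with a probe set on the other side, differed by -0.19 to 0.14. On chromosome 4, Pla2g2e sits in a cluster of secreted phospholipase genes. Its relatives Pla2g2c, Pla2g2f, Pla2g2d, Pla2g5 and Pla2g2a, the last below the filter, had differences between -0.16 and 0.34 under the 5 drugs. The larger values of Pla2g2e under 4 drugs were thus not seen in the neighbouring genes of its family.

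**Figure D4:**
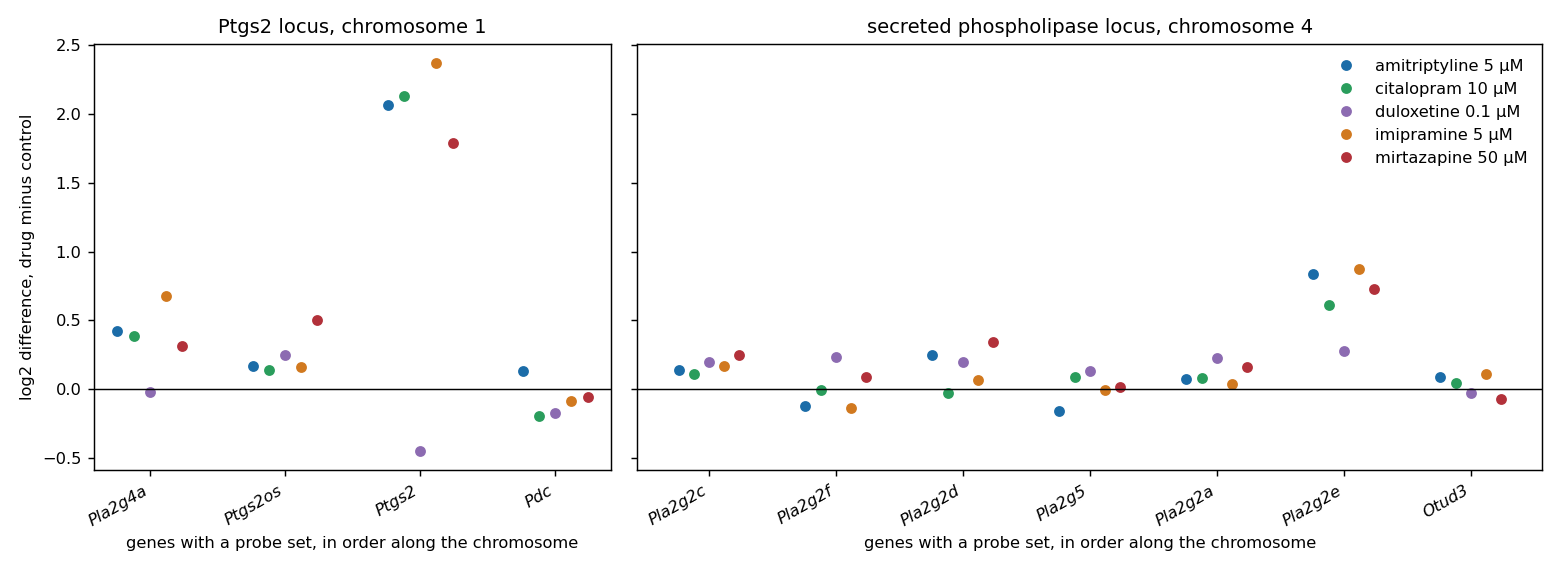
Difference in RMA log2 value, drug minus control (y axis), for genes with a probe set in their order along chromosome 1 around Ptgs2 and along chromosome 4 around Pla2g2e. Ptgs2 stands at 1.79 to 2.37 under 4 drugs beside Pdc at -0.19 to 0.14, and the other phospholipases of the chromosome 4 cluster lie between -0.16 and 0.34.

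The 5 genes whose pattern over the 12 arrays was most like that of Ptgs2, by Pearson correlation among 18493 probe sets, were Hmox1 (0.982), Ier3 (0.982), Car6 (0.979), Abcc4 (0.978) and Hmga2 (0.976). Hmox1 encodes heme oxygenase 1, Ier3 an early response protein, Car6 a secreted carbonic anhydrase and Hmga2 a chromatin protein. Hmox1 had values of 10.52 and 10.53 under amitriptyline, 10.38 and 10.39 under citalopram, 9.22 and 9.26 under duloxetine, 10.62 and 10.45 under imipramine and 10.58 and 10.24 under mirtazapine, against 9.02 and 9.48 in control. These correlations rest largely on the gap between the 8 high and the 4 low arrays. Over the 8 arrays of the 4 drugs alone they were 0.776 for Hmox1, 0.705 for Ier3, 0.767 for Car6, 0.77 for Abcc4 and 0.756 for Hmga2. Among these 8, Ptgs2 was highest on imipramine replicate 1 (10.36) and lowest on mirtazapine replicate 2 (9.26), 1 of the 2 arrays that stood apart. The part of single arrays in the correlations over 8 arrays was not tested. Of the members, Pla2g4a (0.883) ranked 97 and Pla2g2e (0.881) ranked 101, Ptges2 reached 0.329 and Ptges3 0.20, and Hpgd, Ptgds and Ptges lay at -0.01, -0.51 and -0.67. Over the 8 arrays of the 4 drugs the members' values were 0.789 for Pla2g4a, 0.397 for Pla2g2e, 0.661 for Ptges2, 0.821 for Ptges3, -0.07 for Hpgd, -0.29 for Ptgds and -0.18 for Ptges, so the order of the members depended on the arrays used. These are descriptions over arrays that share their groups, and carry no p.

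All 12 neuron markers passed the filter on low values, and their mean log2 stayed between 10.73 and 10.94 over the arrays, Stmn2 the brightest. Levels of different lists rest on different probe sets and are not compared. The 10 microglia markers averaged 6.83 to 7.11 (C1qb the brightest), 6 of 7 endothelial ones that passed the filter 6.43 to 6.81 (Cdh5) and 9 of 10 meningeal and choroid ones 6.91 to 7.46 (Ttr). The 8 astrocyte markers averaged 8.67 and 8.87 under amitriptyline, 8.98 and 8.94 under citalopram, 9.22 and 9.16 under duloxetine, 8.80 and 8.85 under imipramine and 8.79 and 8.65 under mirtazapine, against 9.17 and 9.22 in control, with Slc1a3 the brightest. The 4 drugs with high Ptgs2 were thus those with lower astrocyte signal, and all 8 astrocyte markers lay below control under amitriptyline, imipramine and mirtazapine and 7 of 8 under citalopram. Under mirtazapine Aqp4 fell by 1.17 (limma, adjusted p = 0.0112) and Gfap fell by 0.60 (adjusted p = 0.024). The 7 of 9 oligodendrocyte lineage markers in the fit averaged 7.92 and 8.10 under amitriptyline, 8.15 and 8.13 under citalopram, 8.63 and 8.75 under duloxetine, 8.01 and 8.08 under imipramine and 8.10 and 8.11 under mirtazapine, against 8.25 and 8.64 in control. Under mirtazapine Olig1, the brightest of them, fell by 0.83 (limma, adjusted p = 0.0248). The extracellular matrix gene Dcn fell by 1.61 there (limma, adjusted p = 0.0128), while 7 of the 9 meningeal and choroid markers lay above control, with a median of 0.31. The vesicular glutamate transporter gene Slc17a7 fell by 0.71 (limma, adjusted p = 0.0395), while the 12 neuron markers had a median of -0.07, 4 of them above control, up to 0.67. The part of these shifts in the values of Ptgs2 and the other members was not tested, and in RNA of whole cultures fewer cells of a type and less RNA per cell cannot be told apart.

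Over all probe sets, duloxetine replicate 2 and mirtazapine replicate 2 stood apart. Their slopes on the mean of the other arrays were 0.924 and 0.909, against 0.997 to 1.028 for the other 10, and the first principal component held them at 34.1 and 37.8, where no other array exceeded 3.9. With both left out, which leaves 1 array each of duloxetine and mirtazapine, the difference of Ptgs2 from control was 2.10 under mirtazapine. It stayed at 2.07 under amitriptyline, 2.14 under citalopram and 2.37 under imipramine, whose arrays were all kept.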

How the data were processed

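The authors deposited log2 intensities with 2 decimals for 41345 probe sets on 12 arrays of total RNA. Affymetrix Expression Console and RMA are named per the submitters' processing notes, but their versions and settings, and the genome build, are not. Groups, doses and times were taken from the labels.

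In GEO's platform annotation 23521 probe sets carried 1 gene symbol, 1814 several and 16010 none. Of the first, 99.2% were found by gene number in RefSeq's table for GRCm38. Those with 1 symbol and a mean log2 of at least 5.72 (the 30th percentile) entered 1 limma fit (3.58.1, R 4.3.3) of all 12 arrays, giving 18493 probe sets of 17467 genes, 6 residual and 3.83 prior degrees of freedom. Tests were two-sided, with Benjamini-Hochberg adjustment over all 18493 and a threshold of 0.05. The median distance between a difference and the bound of its 95% interval was 0.29. In 1 simulated data set, each probe set had its mean over the 12 arrays and its spread within the 6 groups. Known changes were added under mirtazapine and tested against control. Of 18493 probe sets, 31.3% of 67 changed by 0.5, 88.1% of 67 changed by 1 and 98.5% of 66 changed by 2 were recovered. Of the unchanged ones 6 were called. The simulated noise was normal and independent, with no array standing apart as in the real data, so recovery there may have been lower.

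The members and the 13 gene lists were chosen with earlier results of these data known. Named genes are the members, list genes that passed or, where none did, the 2 of lowest p in a list, for marker lists the brightest gene and those that passed, and the 5 genes most correlated with Ptgs2. Other list genes are given only in counts and medians, and the neighbours of Ptgs2 and Pla2g2e were taken by position. Alternatives were other filters, 1 probe set a gene, a replicate block, weights per array, a repeated quantile normalization, trended and robust eBayes, the 4 arrays compared alone, and arrays left out. Figures were drawn with matplotlib 3.10.9 in Python 3.11.15.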

Additional observations from a re-analysis of the deposited data

How the results depend on the processing

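Ptgs2 was chosen for its differences, and only a repeated normalization or leaving out an array of the groups compared can alter them. Most of the 22 alternatives therefore could not. Over these 22 the difference of Ptgs2 from control kept its sign under every drug, from which nothing is read. Leaving out each array in turn, it ran from 1.74 to 2.40 for amitriptyline, 1.81 to 2.47 for citalopram, -0.78 to -0.12 for duloxetine, 2.04 to 2.70 for imipramine and 1.46 to 2.12 for mirtazapine, and for amitriptyline minus imipramine from -0.51 to -0.09. Without both arrays that stand apart, it was 2.10 for mirtazapine. Of 912 differences of the other 7 member probe sets, 882 moved by less than 1 SD and 30 moved by more. Most of the 912 could not move, since a filter, an eBayes setting or an array of another group does not enter a difference. Only a called difference could count as reversed, and Pla2g2e under mirtazapine was the only one called among them. Nothing is therefore read from the 0 that reversed.

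Which members passed 0.05 depended on the setting, and the cause was not tested. Leaving out each array in turn, 0 to 2 passed under amitriptyline, 0 to 1 under citalopram, 0 to 0 under duloxetine, 0 to 2 under imipramine and 0 to 3 under mirtazapine. For imipramine 0 passed without control replicate 1 or without any 1 array of imipramine, citalopram or amitriptyline, and under mirtazapine 0 without control replicate 1 or mirtazapine replicate 2. A 50th percentile filter left out Pla2g4a and Ptges3. With it 2 passed under amitriptyline and 2 under imipramine, beside 9 and 6 of all 14117 probe sets. With probe sets of any annotation over the low-value filter, 0 passed under imipramine and 0 under mirtazapine, beside 0 and 23 of 28947. With only the 4 arrays compared, 0 passed under both, beside 0 and 0 of 18493. With trend and robust the count was 2 for imipramine, 2 for amitriptyline and 1 for citalopram, beside 17, 25 and 3 of 18493. With array weights it was 3 for imipramine, 2 for amitriptyline, 2 for citalopram and 1 for mirtazapine, beside 113, 205, 54 and 95. With a second quantile normalization 1 passed under amitriptyline and 2 under imipramine, beside 8 and 16. Apart from the settings with arrays left out, the members that passed were Ptgs2, Pla2g2e and, under imipramine with array weights, Pla2g4a. With arrays left out, Pla2g4a under imipramine and Ptges3 and Ptgds under mirtazapine passed as well, in fits that left 1 array in a group. Since Ptgs2 and Pla2g2e were chosen by these contrasts, nothing is read from the counts. The sources do not say whether replicate numbers pair the samples, and these arrays cannot settle it. Over 15 pairs of groups the deviations of same-numbered arrays correlated at -0.439 to 0.702, 4 of them over 0.1. Both arrays that stand apart are numbered replicate 2. With the replicate block 0 members passed under imipramine, beside 2 of all 18493 probe sets. The median distance to a 95% bound, 0.29, belongs to an unadjusted interval, and passing the adjusted threshold took larger differences with 2 arrays a group. In the simulation 31.3% of probe sets changed by 0.5 were recovered, and Pla2g4a at 0.68 under imipramine did not pass. A gene that did not pass may therefore still have changed.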
